A study of Homo sapiens with 8 samples.

Results

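MOBP, OTOP1, NPTX1, SHISA2 and COL8A1 are 5 protein-coding genes, of 26760 genes in the count table, that were selected on their log2 fold change as the largest falls when DNp63 libraries were compared with their controls in LK2, a human lung squamous cell carcinoma line. The comparison averaged the DNp63 effect over a constitutive and an inducible expression system, so the 5 genes' falls in that average and in each system chose them and are described below without a test. LK2 cells grown in RPMI-1640 medium with serum gave 8 libraries of polyA-selected RNA in 4 groups of 2. DNp63 cells carried DNp63, the p63 form without the N-terminal activation domain, on pLEX_306 in replicate 1 and pLEX_307 in replicate 2, and GFP cells carried GFP on the same vector numbers. Induced cells carried DNp63 on the doxycycline-dependent vector pLIX_403 and received 2 µg/ml doxycycline for 6 days, and uninduced cells carried the same vector without the drug, so no control of the inducible system lacks the DNp63 vector or controls for the drug. The 2 libraries of the DNp63 group, and those of the GFP group, carried different vectors, so their spread includes any effect of the vector. Whether both libraries of the induced or of the uninduced group were grown as separate cultures is not stated, so their spread may be technical. The p-values measure only the spread between these libraries, taken for each gene as 1 estimate shared by all 4 groups. The SE and calls of each comparison thus also carry spread from groups outside it. In bulk RNA of this kind, fewer cells of a type and less RNA per cell cannot be told apart.

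MOBP encodes myelin-associated oligodendrocyte basic protein, a structural protein of central nervous system myelin. OTOP1 encodes otopetrin 1, a proton channel of sour-sensing taste cells that in mice is also needed to form the otoconia of the inner ear. NPTX1 encodes neuronal pentraxin 1, a secreted protein that gathers AMPA-type glutamate receptors at synapses. SHISA2 belongs to a family, first described in Xenopus, whose founding members hold Frizzled and FGF receptors in the endoplasmic reticulum. COL8A1 encodes the alpha chain of type VIII collagen, a short collagen that forms sheet-like networks in basement membranes of vessels and the cornea. p63 is the transcription factor that maintains basal cells of stratified epithelia, and it binds DNA elements of the kind also bound by p53.

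RefSeq promoters on GRCh38.p14, each 250 bases before to 50 after the annotated start, were matched for 3 of the 5 genes. They are shown because the genes fell together, with matches to the Sox-factor core CTTTGT in capitals, 5' to 3' on the gene's strand. MOBP lies at chr3:39467430-39467729 on the plus strand, OTOP1 at chr4:4226880-4227179 on the minus strand and SHISA2 at chr13:26051967-26052266 on the minus strand.
MOBP: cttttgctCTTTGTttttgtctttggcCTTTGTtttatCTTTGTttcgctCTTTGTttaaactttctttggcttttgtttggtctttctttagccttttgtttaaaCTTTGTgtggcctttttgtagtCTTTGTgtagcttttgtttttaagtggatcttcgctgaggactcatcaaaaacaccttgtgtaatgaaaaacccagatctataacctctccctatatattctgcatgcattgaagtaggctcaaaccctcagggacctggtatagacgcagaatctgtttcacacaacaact
OTOP1: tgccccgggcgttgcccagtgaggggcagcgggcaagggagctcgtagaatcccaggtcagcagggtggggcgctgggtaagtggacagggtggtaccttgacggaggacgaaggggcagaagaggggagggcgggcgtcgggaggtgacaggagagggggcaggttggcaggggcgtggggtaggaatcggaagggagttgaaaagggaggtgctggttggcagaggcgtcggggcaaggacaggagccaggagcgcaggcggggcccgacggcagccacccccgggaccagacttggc
SHISA2: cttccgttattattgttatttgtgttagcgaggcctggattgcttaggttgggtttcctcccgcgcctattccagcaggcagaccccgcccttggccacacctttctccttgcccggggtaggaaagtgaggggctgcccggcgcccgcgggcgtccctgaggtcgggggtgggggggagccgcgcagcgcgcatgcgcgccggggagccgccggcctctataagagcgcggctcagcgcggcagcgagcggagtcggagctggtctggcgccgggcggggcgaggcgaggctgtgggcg
Both strands were searched, and the choice of motifs was made after the MOBP sequence had been seen. The MOBP promoter held 6 CTTTGT matches, the first beginning 242 bases and the last ending 117 bases before the start. It was the only 1 of 35116 promoters with 6 or more, while 16.1% held at least 1. The OTOP1 and SHISA2 promoters held none, and they differed from MOBP in base makeup as well, with 19 CpG in OTOP1 and 34 in SHISA2 against 3 in MOBP. None of the 3 windows held CATTGT (present in 10.8% of promoters), the octamer ATTTGCAT (1.77%), a pair of CATG with 6 bases between them (0.373%) or TATAAA (11.5%). A match is a run of letters and was not tested as a binding site.

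Library totals were 2758158 to 10372248 counts, so that 3 counts in 1 library correspond to 0.289 to 1.09 CPM, counts scaled to a library of fixed size, and such floors cover counting error only. Of all genes, 12303 had enough counts to be tested, and all 5 genes were among them. The DNp63 and GFP libraries varied more between replicates than the inducible ones, with a median difference between 2 libraries of 0.41 in DNp63, 0.37 in GFP, 0.22 in induced and 0.17 in uninduced cells on the log2 scale. TP63 stood at 1850.1 and 3815.7 CPM in DNp63 libraries against 0.739 and 1.91 CPM in GFP libraries, and at 412.4 and 422.1 CPM in induced against 12.7 and 14.8 CPM in uninduced libraries. The epithelial markers were all detected, with summed levels of 5577 to 5677 CPM in DNp63, 4547 to 4697 in GFP, 4247 to 4510 in induced and 3285 to 3639 in uninduced libraries. Of 8 squamous markers 7 were detected and KRT14 was at 0. MOBP and NPTX1 are known from oligodendrocytes and neurons, and of 8 oligodendrocyte markers MAG, OPALIN, SOX10 and OLIG2 had no count in any library. The summed oligodendrocyte markers stood at 62.7 to 65.1 CPM in DNp63, 46.6 to 51.5 in GFP, 40.8 to 41.5 in induced and 40.2 to 41.7 CPM in uninduced libraries. Of 6 fibroblast markers COL3A1 and DCN were at 0, and the sum was 16.6 to 30.8 CPM in DNp63, 18.0 to 21.1 in GFP, 8.40 to 15.1 in induced and 15.6 to 17.1 CPM in uninduced libraries. The 6 neuronal markers summed to 380 to 439 CPM in DNp63 and 510 to 546 in GFP libraries, and to 350 to 351 CPM in induced and 450 to 485 in uninduced libraries, with MAP2 at 290.9 and 139.3 CPM in DNp63 against 168.1 and 144.6 CPM in GFP libraries among them. Of these markers SYT1 (-1.27, edgeR adjusted p = 0.00073) and NEFL (-0.93, 0.00861) were called lower in the averaged comparison, where 2.41% of all tested genes were. SNAP25 (-1.08, edgeR adjusted p = 0.0922), TUBB3 (-0.38, 0.375) and MAP2 (0.21, 0.637) were not called. RBFOX3 held 2 counts in all libraries, and the part of these markers in the NPTX1 values was not tested.

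MOBP, the myelin gene, had 0.857 and 2.33 CPM in the DNp63 libraries, against 36.6 and 25.6 CPM in the GFP libraries. It had 6.18 and 7.67 CPM in the induced libraries, against 45.1 and 49.7 CPM in the uninduced libraries. Every library with DNp63 switched on lay below every control library, and the lowest value rested on 3 counts. The fitted log2 fold change was -4.16 ± 0.40 (SE) for DNp63 against GFP, a 17.9-fold lower level, and -2.78 ± 0.32 for induced against uninduced, 6.89-fold lower. In the GENCODE annotation of GRCh38 MOBP overlaps an antisense gene that has no entry of its own in the count table, and without a stated strand setting for the counting, reads of the 2 genes cannot be told apart.

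OTOP1, the proton channel, had 4.29 and 8.15 CPM in the DNp63 libraries, against 96.8 and 90.4 CPM in the GFP libraries. In induced cells it had 14.3 and 15.3 CPM, against 66.4 and 60.8 CPM in uninduced cells. The GFP libraries were the highest and no DNp63-expressing library overlapped a control. The log2 fold change was -3.86 ± 0.29 for DNp63 against GFP and -2.10 ± 0.25 for induced against uninduced, falls of 14.6-fold and 4.28-fold.

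NPTX1, the neuronal pentraxin, had 0.571 and 3.10 CPM in the DNp63 libraries, against 17.4 and 55.3 CPM in the GFP libraries. It had 8.40 and 8.85 CPM in the induced libraries, against 32.6 and 23.3 CPM in the uninduced libraries. Neither DNp63-expressing group overlapped its own control, but both constitutive groups were wide: the second library was 5.43 times the first in DNp63 cells and 3.18 times the first in GFP cells. The log2 fold change was -4.19 ± 0.64 for DNp63 against GFP, the widest error of the 5 genes, and -1.69 ± 0.52 for induced against uninduced. Without GFP replicate 2 the DNp63 value was -3.11, and without DNp63 replicate 2 it was -5.97.

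SHISA2, the endoplasmic reticulum protein, had 6.29 and 1.16 CPM in the DNp63 libraries, against 68.4 and 66.7 CPM in the GFP libraries. It had 17.2 and 23.6 CPM in induced cells, against 53.9 and 63.8 CPM in uninduced cells. The GFP libraries were nearly equal and the spread lay in the DNp63 libraries, the second of which held 0.185 times the level of the first. The log2 fold change was -4.30 ± 0.49 for DNp63 against GFP and -1.54 ± 0.39 for induced against uninduced. In the fit of all libraries SHISA2 had the deepest constitutive and the shallowest induced fall of the 5 genes, with COL8A1 close to it at -4.25 ± 0.46 in the constitutive system. The constitutive value was -5.84 without DNp63 replicate 1 and -3.42 without DNp63 replicate 2. In the latter fit it was the shallowest of the 5 genes, next to COL8A1 at -3.66.

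COL8A1, the network collagen, had 1.43 and 0.582 CPM in the DNp63 libraries, against 15.5 and 20.8 CPM in the GFP libraries. It had 5.19 and 4.33 CPM in the induced libraries, against 15.3 and 16.8 CPM in the uninduced libraries. Both DNp63 values rested on few reads, 5 and 3 counts, and neither group of DNp63-expressing libraries overlapped its control. The log2 fold change was -4.25 ± 0.46 for DNp63 against GFP and -1.74 ± 0.34 for induced against uninduced.

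**Figure D1:**
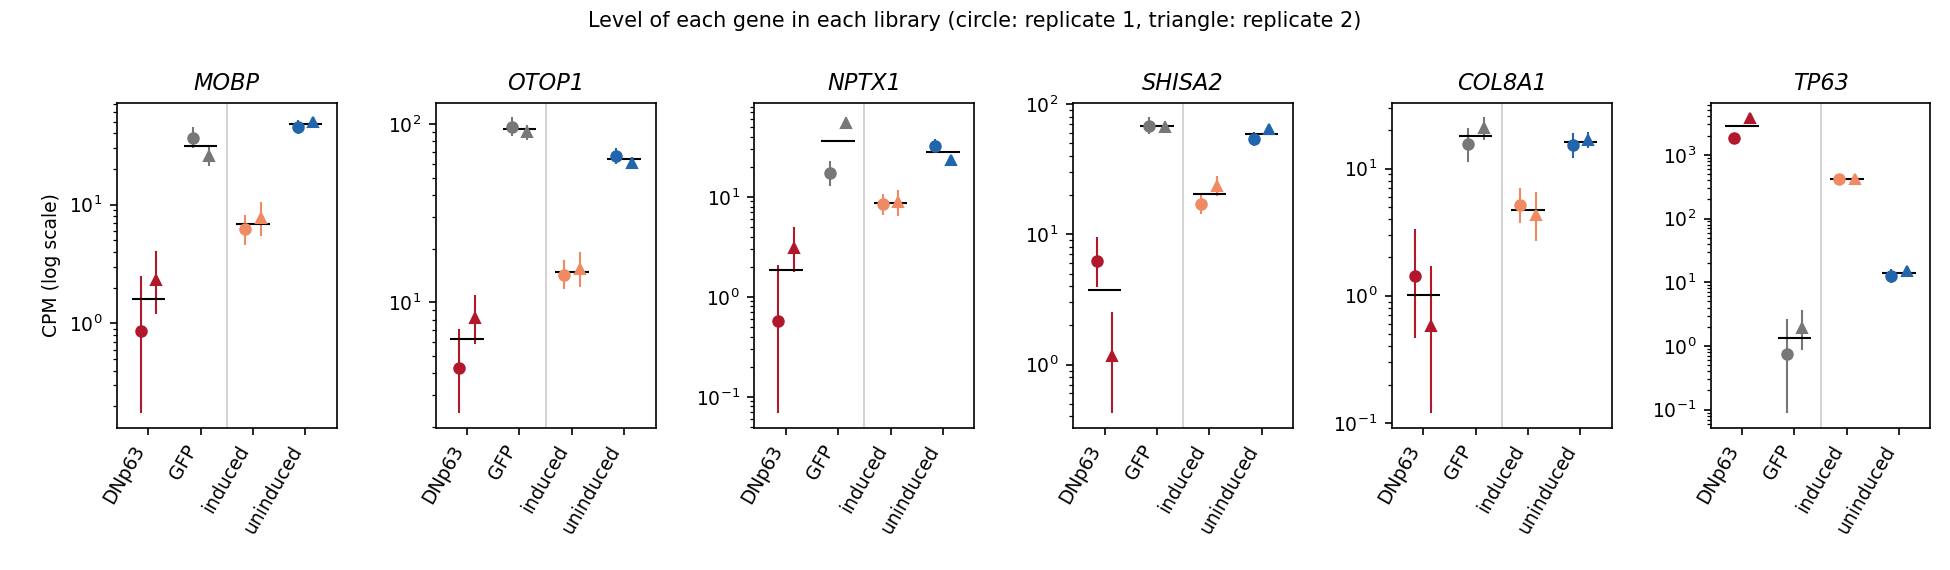
Level of each of the 5 genes, and of TP63, in each of the 8 libraries, in CPM on a log axis, with DNp63 left of GFP and induced left of uninduced. Circles are replicate 1 and triangles replicate 2 with 95% counting intervals, and horizontal bars are group means. In the panels of the 5 genes both DNp63 libraries lie lowest, both induced libraries come next, and all control libraries lie above them.

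The 5 genes shared an order of levels, with DNp63 lowest, induced next, and both control groups above. None of the DNp63 libraries overlapped an induced library, and the nearest approach in ratio was that of OTOP1, where the highest DNp63 value was 8.15 CPM and the lowest induced value 14.3 CPM. Among the controls, MOBP was higher in uninduced than in GFP libraries, at 47.4 ± 3.25 against 31.1 ± 7.75 CPM (SD, n = 2 each), while OTOP1 was lower, at a mean of 63.6 against 93.6 CPM. For NPTX1 and COL8A1 the uninduced and GFP libraries overlapped. TP63 ran the other way, highest in DNp63 and next in induced libraries.

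At a 5% false discovery rate over all 12303 genes, the fits called all 5 genes lower in the average and in DNp63 against GFP, where 2.41% and 3.99% of all genes were called lower. In induced against uninduced cells 2 of the 5, MOBP and OTOP1, were called lower, where 0.0488% of all genes were. These counts restate the choice of the genes. The induced count was 4 with DESeq2, 5 with no filter on low counts and 4 without either DNp63 library, and 0 when any 1 of the 4 induced or uninduced libraries was left out. Among 231 called falls that averaged 5 CPM or more and went down in all 4 numbered pairs, the 5 genes ranked 2nd (MOBP), 4th (COL8A1), 6th (OTOP1), 7th (NPTX1) and 8th (SHISA2) in the averaged log2 fold change. Just inside the 8 largest stood SHISA2 at -2.92, and just outside stood PTX3 at -2.91 and HAS3 at -2.58. The other 3 of the 8 were GRIK3, THBS1 and ADH1C, of which GRIK3 held 0.857 and 0 CPM in the DNp63 libraries and THBS1 was no longer called without GFP replicate 2 or without any 1 of the induced or uninduced libraries.

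**Figure D2:**
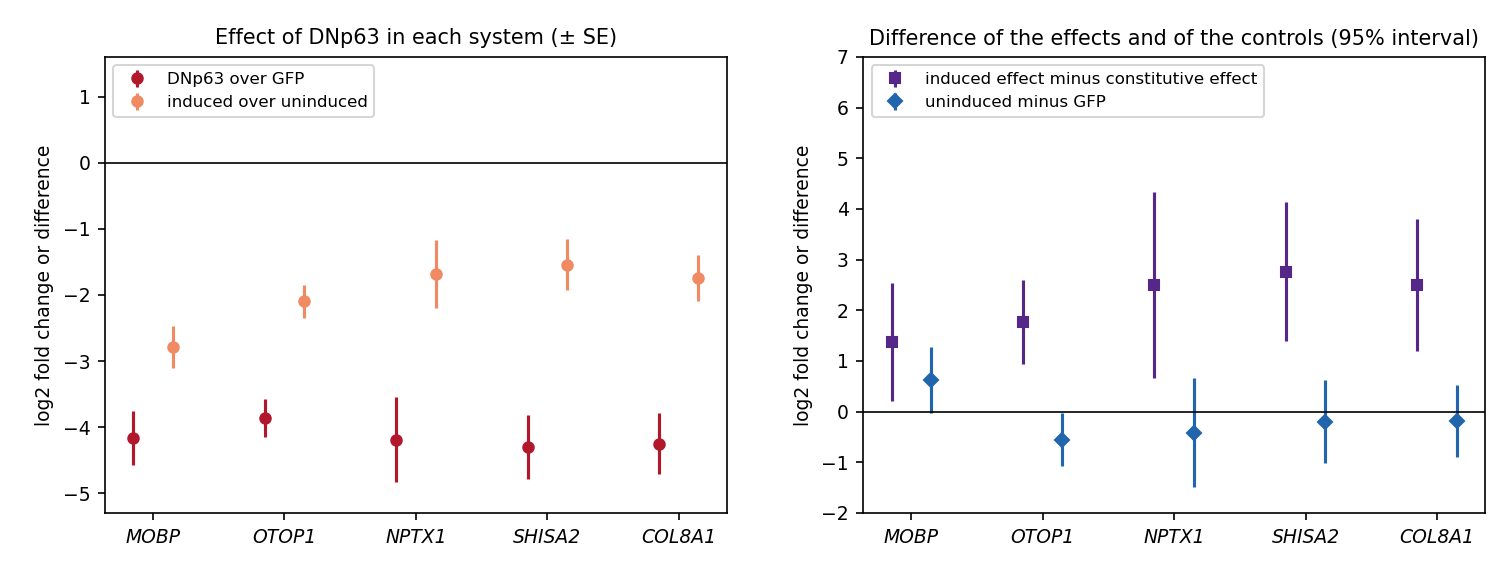
Log2 fold changes of the 5 genes from the edgeR fit, on the left for DNp63 over GFP and induced over uninduced with bars of ± 1 SE, and on the right for the induced minus the constitutive effect and for uninduced minus GFP with 95% intervals. The 5 constitutive values lie between -4.30 and -3.86, the induced values between -2.78 and -1.54, and the differences between 1.38 and 2.76.

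The difference between the systems, the induced minus the constitutive log2 effect, is built from the same effects that chose the genes, and the constitutive effect had the larger SE for all 5 genes. Picking on the average then favours constitutive falls that are overstated, and with them positive differences, so the differences are a description with no test. The difference was 1.38 ± 0.53 (SE) for MOBP (95% interval 0.22 to 2.54), 1.76 ± 0.37 for OTOP1 (0.94 to 2.59), 2.50 ± 0.83 for NPTX1 (0.66 to 4.34), 2.76 ± 0.62 for SHISA2 (1.39 to 4.13) and 2.51 ± 0.59 for COL8A1 (1.20 to 3.81). All 5 were positive, the induced falls being smaller. At the call rule used for all genes, edgeR called 0 of the 5, where 0.545% of genes were called. All 5 had an unadjusted edgeR p below 0.05, as had 1496 of all 12303 genes. DESeq2 called 3, namely OTOP1, NPTX1 and SHISA2, and over all genes it also called more differences than edgeR. Single libraries moved the values: without DNp63 replicate 1 the difference was 4.29 for SHISA2 and 3.19 for COL8A1, both then called, and without DNp63 replicate 2 it was 2.34 for OTOP1 and 1.87 for SHISA2, again both called. Over all leave-outs and other settings the 5 differences lay between 0.93 and 4.29. Of the other 226 falls in the ranking, 205 had a positive difference, with a median of 0.88. These falls were picked on the same average, so the choice bears on this count as well and it is a description with no test. The induced log2 fall as a share of the constitutive one was 0.669 for MOBP, 0.543 for OTOP1, 0.410 for COL8A1, 0.403 for NPTX1 and 0.358 for SHISA2, beside a median of 0.363 and quartiles of 0.251 and 0.599 over the other 226.

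The control groups, uninduced minus GFP, differed by 0.62 ± 0.29 for MOBP (95% interval -0.03 to 1.27; adjusted p = 0.575), -0.56 ± 0.24 for OTOP1 (-1.08 to -0.04; 0.516), -0.41 ± 0.49 for NPTX1 (-1.49 to 0.66; 0.847), -0.20 ± 0.37 for SHISA2 (-1.02 to 0.63; 0.911) and -0.18 ± 0.32 for COL8A1 (-0.90 to 0.53; 0.901) on the log2 scale. None of the 5 was called by edgeR, where 0.00813% of all genes were, and DESeq2 called none. OTOP1, 1 of the 5, had an unadjusted edgeR p below 0.05, as had 1120 of all 12303 genes. TP63 was higher in both uninduced libraries than in both GFP libraries, by 3.23 ± 0.50, and was not called (0.165).

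Within the 4 numbered pairs all 5 genes were lower in the DNp63-expressing library each time, but the pairs of the constitutive system ranked the genes differently. In the pLEX_306 pair the DNp63 library kept 2.34% of the GFP level of MOBP, 3.29% of NPTX1 and 4.43% of OTOP1, but 9.20% of SHISA2 and 9.21% of COL8A1. In the pLEX_307 pair it kept 1.74% of SHISA2 and 2.80% of COL8A1, but 5.61% of NPTX1, 9.01% of OTOP1 and 9.08% of MOBP. MOBP, OTOP1 and NPTX1 were thus lower in the first DNp63 library, and SHISA2 and COL8A1 lower in the second, while TP63 was 2.06 times as high in the second as in the first. The counting intervals of the 2 pairs did not overlap for SHISA2, 0.0563 to 0.143 in the first and 0.00635 to 0.0384 in the second as ratios. They did for MOBP, 0.00475 to 0.0705 and 0.0457 to 0.165, and also for OTOP1, NPTX1 and COL8A1. Only for SHISA2 did the 2 pairs thus differ by more than counting error. In the inducible pairs the induced libraries kept 13.7% and 15.4% of MOBP, 21.6% and 25.3% of OTOP1, 25.8% and 37.9% of NPTX1, 31.8% and 37.0% of SHISA2, and 33.9% and 25.7% of COL8A1. The deepest induced fall was thus that of MOBP in both replicates.

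Whole profiles were compared by the root mean square (RMS) difference of centred log2 CPM over the 8 libraries. SHISA2 and COL8A1 lay closest to each other, at 0.457, MOBP and OTOP1 stood at 0.554, and NPTX1 and SHISA2 lay farthest apart, at 1.12. Over 9772 compared genes the median distance to a member was 1.58 to 1.90, and all distances share the same 8 libraries. The members were picked for large falls in these libraries. That choice alone brings their profiles near to each other and to those of other large falls. The median over all compared genes is thus not a fair yardstick, and the distances are a description with no test. The gene nearest to MOBP was CACNA1E, a voltage-gated calcium channel subunit, at 0.591, followed by FZD1 at 0.625 and ATP8A2 at 0.718. OTOP1 had the same 3 nearest genes, with FZD1, a Wnt receptor, at 0.367, CACNA1E at 0.405 and ATP8A2 at 0.440. NPTX1 lay nearest to PTX3, a secreted pentraxin of innate immunity, at 0.374, then to POU3F2, the neural transcription factor BRN2, at 0.400 and to SLC9A4, a sodium-proton exchanger, at 0.449. HAS3, a hyaluronan synthase, was nearest to both SHISA2, at 0.454, and COL8A1, at 0.376. Next came GXYLT2 at 0.682 and GRIK3 at 0.750 for SHISA2, and KCNE3 at 0.402 and FZD1 at 0.408 for COL8A1. POU3F2 stood at 2.86 and 12.4 CPM in DNp63 libraries against 41.4 and 119.9 CPM in GFP libraries, and at 31.7 and 25.2 CPM in induced against 55.7 and 47.2 CPM in uninduced libraries, with the second constitutive library the higher one in both groups, as for NPTX1. SOX2, the squamous transcription factor named with BRN2 in the title of the series, stood at 68.3 and 96.4 CPM in DNp63 libraries against 277.9 and 517.4 CPM in GFP libraries, and at 337.1 and 277.6 CPM in induced against 575.0 and 536.9 CPM in uninduced libraries.

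**Figure D3:**
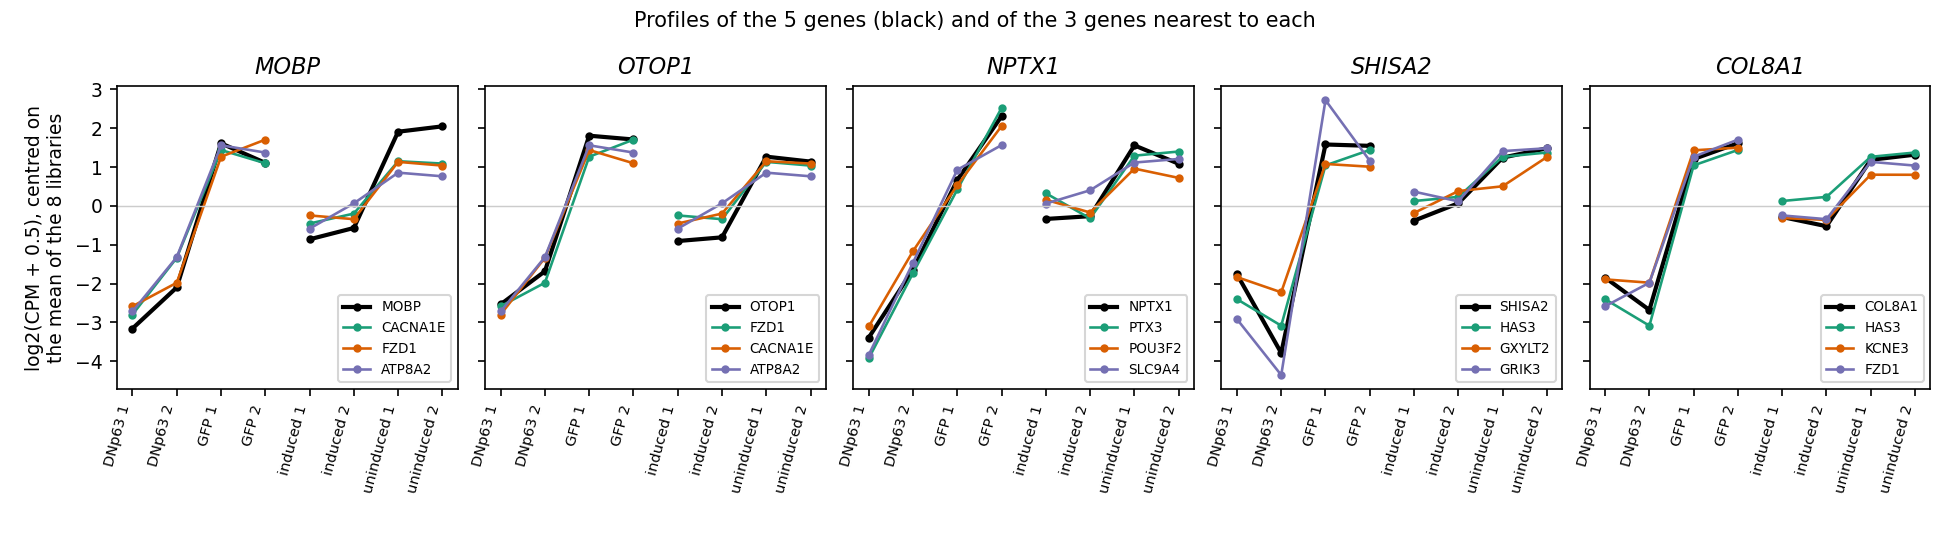
Centred log2(CPM + 0.5) of each of the 5 genes and its 3 nearest genes over the 8 libraries, DNp63 left of GFP and induced left of uninduced. The curves of NPTX1, PTX3 and POU3F2 climb between the 2 DNp63 libraries and between the 2 GFP libraries, whereas those of SHISA2 and HAS3 drop between the 2 DNp63 libraries.

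The nearest tested protein-coding genes on either side of each of the 5 genes were taken in RefSeq order. Of these, 1 of 10 was called in the averaged comparison, where 3.26% of all tested genes were called higher and 2.41% lower. This was ATP8A2, a phospholipid flippase gene beside SHISA2, with 0.571 and 2.33 CPM in DNp63 libraries against 20.3 and 17.8 CPM in GFP libraries, and 4.20 and 6.88 CPM in induced against 12.3 and 11.5 CPM in uninduced libraries. Its averaged log2 fold change was -2.35 ± 0.33 (edgeR adjusted p = 0.0019), and unlike SHISA2 it was lower in the first DNp63 library. The other SHISA2 neighbour, RNF6, stood at 0.34 (adjusted p = 0.473), and the neighbours of MOBP stood at -0.36 for RPSA (0.224) and -0.38 for MYRIP (0.563). RPSA, a ribosomal protein gene, was called lower in DNp63 against GFP alone (-0.83, adjusted p = 0.0396). The neighbours of OTOP1, NPTX1 and COL8A1 lay between -0.32 and 0.20.

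Genes of the pathways in which the 5 genes are known were counted from 5 lists, beside all tested genes, of which 3.26% were called higher and 2.41% lower in the averaged comparison at a median log2 fold change of -0.01. The myelin and oligodendrocyte list had 9 of 27 genes tested and 1 called, with a median of -0.08. The higher one was GPR37, a receptor of oligodendrocytes and neurons, with 937.2 and 334.4 CPM in DNp63 libraries against 18.1 and 12.7 CPM in GFP libraries and 14.3 and 17.1 CPM in induced against 6.04 and 4.37 CPM in uninduced libraries. Its averaged log2 fold change was 3.51 ± 0.33 (edgeR adjusted p = 0.000192), and its difference between the systems was called (-3.77, adjusted p = 0.0372). MBP, the major basic protein of myelin, stood at 58.9 ± 2.03 CPM in DNp63 cells, 45.8 ± 3.57 CPM in GFP cells, 37.3 ± 0.680 CPM in induced cells and 37.2 ± 0.346 CPM in uninduced cells (SD, n = 2 each), and was not called (0.18, adjusted p = 0.537). CLDN11, a tight junction protein of myelin, stood at -0.38 (0.229) and ENPP2, the enzyme autotaxin, at -1.06 (0.234).

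The list of proton channels, acid sensors and proton transporters had 11 of 28 genes tested and none called by edgeR, with a median of -0.01. At an unadjusted edgeR p below 0.05 there were 2, beside 2346 of all 12303 tested genes, and DESeq2 called 0. OTOP2 and OTOP3, the relatives of OTOP1, had no count in any library. SLC9A2, a sodium-proton exchanger, had 15.4 and 106.5 CPM in DNp63 libraries against 204.7 and 444.1 CPM in GFP libraries, and 138.1 and 150.1 CPM in induced against 227.2 and 239.3 CPM in uninduced libraries, and its averaged log2 fold change of -1.54 ± 0.43 was not called (adjusted p = 0.0664). The anion exchanger SLC4A2 stood at -0.28 (0.312) and the carbonic anhydrase CA2 at -1.05 (0.398).

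In the list of pentraxins and AMPA receptor genes, 7 of 20 genes were tested, with 1 higher and 1 lower and a median of -0.06. PTX3 had 0.286 and 3.10 CPM in DNp63 libraries against 15.5 and 68.2 CPM in GFP libraries, and 14.5 and 9.05 CPM in induced against 28.8 and 31.0 CPM in uninduced libraries. Its averaged log2 fold change was -2.91 ± 0.49 (edgeR adjusted p = 0.00635; 0.0566 without induced replicate 2). GRIA1, an AMPA receptor subunit, had 367 counts over the DNp63 libraries and 0 over the GFP libraries, at least 105.0-fold higher with the GFP group put at 3 counts, while induced and uninduced libraries held 5 and 2 counts, a ratio of 2.89 with a counting interval of 0.474 to 30.4. The averaged call of GRIA1 (edgeR adjusted p = 0.023) was lost without GFP replicate 2 (0.0686), induced replicate 2 (1.00) or uninduced replicate 2 (0.0721). NPTX2, the closest relative of NPTX1, held 27 counts in all and was not tested. NPTXR, the membrane-bound pentraxin, stood at 1.23 ± 0.44 (0.146), and CNIH2, an AMPA receptor auxiliary protein, at -0.55 (0.717).

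The SHISA family and the receptors it is known to retain had 19 of 26 genes tested and 2 called, with a median of -0.23. Both lower genes were Frizzled receptors of the Wnt pathway. FZD1 had 38.6 and 59.0 CPM in DNp63 libraries against 563.8 and 765.1 CPM in GFP libraries, and 197.4 and 184.5 CPM in induced against 514.4 and 481.2 CPM in uninduced libraries, an averaged log2 fold change of -2.57 ± 0.17 (edgeR adjusted p = 1.96e-05). FZD8 had 10.6 and 22.7 CPM in DNp63 libraries against 157.0 and 109.7 CPM in GFP libraries, and 88.4 and 89.9 CPM in induced against 108.7 and 124.6 CPM in uninduced libraries, with -1.68 ± 0.21 (0.00118). For both the difference between the systems was called, at 2.38 for FZD1 (adjusted p = 0.0206) and 2.58 for FZD8 (0.0308). Of the SHISA relatives, SHISA4 stood at 0.94 ± 0.30 (0.104) and SHISA5 at -0.23 (0.417), and neither was called in the average. In DNp63 against GFP alone 2 genes of the list were called higher and 4 lower, where 4.17% and 3.99% of all genes were. The 2 higher ones were SHISA4 (2.15, edgeR adjusted p = 0.0134) and FZD6 (0.98, 0.0283). FAM159B, now named SHISAL2B, was not called (adjusted p = 0.0725) and held 3 counts over the induced libraries against 29 over the uninduced ones, a ratio of 0.12 with a counting interval of 0.0233 to 0.386. KIAA1644, now SHISAL1, stood at -0.86 (0.475), and SHISA3, SHISA6, SHISA7, SHISA8, SHISA9 and FAM159A (SHISAL2A) had between 0 and 47 counts in all and were not tested.

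The list of network collagens, collagen receptors and collagen processing had 24 of 28 genes tested, 3 higher and 1 lower, with a median of 0.31, and DESeq2 called 6 higher and 1 lower. DDR1, a collagen-binding receptor kinase, was higher by 1.59 ± 0.22 (edgeR adjusted p = 0.00213) and SERPINH1, a collagen chaperone, by 0.81 ± 0.14 (0.00603) on the log2 scale. COL7A1, the anchoring fibril collagen of skin, was higher by 1.42 ± 0.31 (0.0255) in the average, with 18.3 and 17.8 CPM in DNp63 libraries against 2.59 and 1.91 CPM in GFP libraries but 1.73 and 1.38 CPM in induced against 2.01 and 1.65 CPM in uninduced libraries. COL4A2, a basement membrane collagen chain, was lower at -0.75 ± 0.15 (0.0156). Without any 1 of the induced or uninduced libraries COL4A2 was not called, at adjusted p of 0.0635 to 0.117, and COL7A1 was not called at 0.0611 to 0.155 or without GFP replicate 2 at 0.0915. SERPINH1 was not called without induced replicate 1 (0.0564), uninduced replicate 1 (0.0542) or uninduced replicate 2 (0.0572). COL8A2, which encodes the partner chain of COL8A1, held 16 counts in all libraries and COL10A1 held 1.

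**Figure D4:**
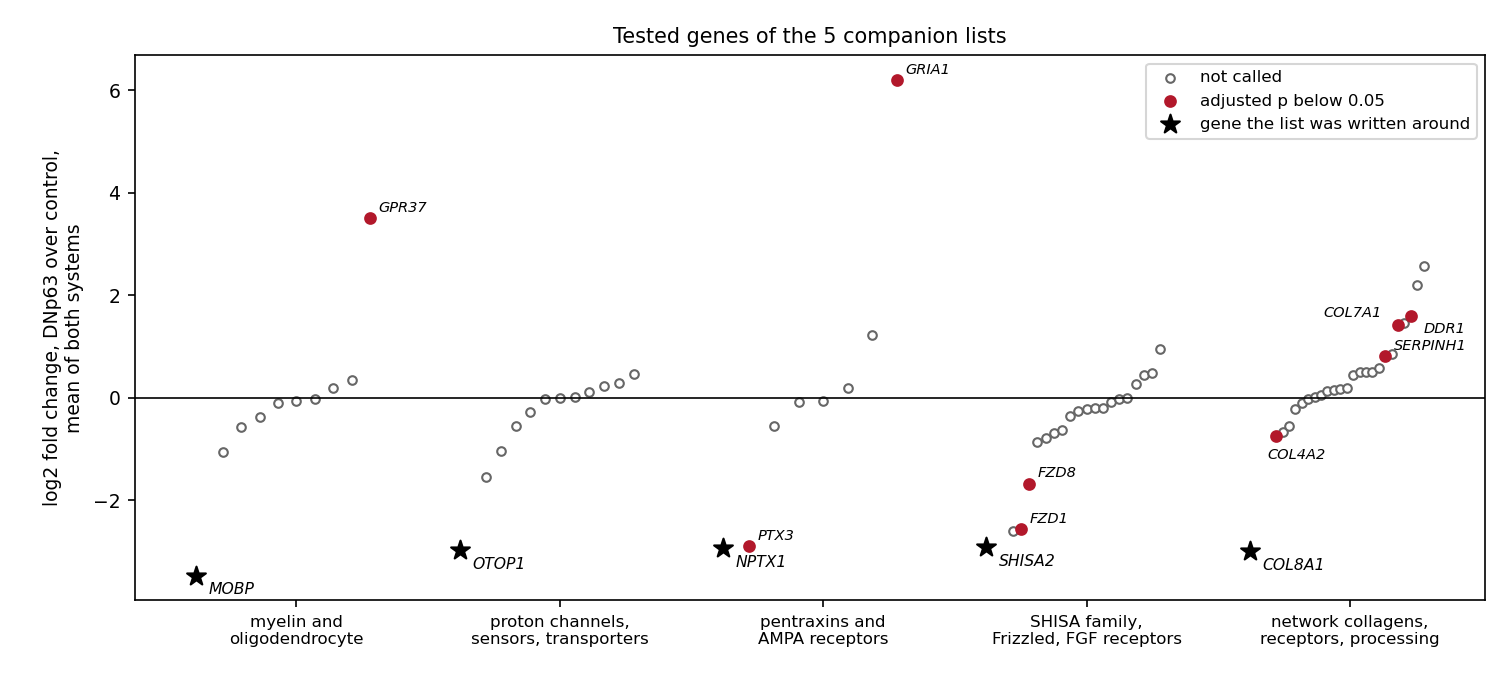
Averaged log2 fold change of DNp63-expressing against control libraries for the tested genes of the 5 lists, with called genes as filled, named circles and the 5 picked genes as stars beside their list. The picked genes lie at -3.47 to -2.92, where their choice as the largest falls put them, and the list gene nearest to them is PTX3 at -2.91. The position of GRIA1 depends on the small count added to libraries at 0.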

How the data were processed

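The authors deposited whole-number read counts for each gene and library. The submitters' processing notes name TopHat2 2.1, SAMtools, HTSeq and DESeq2 and the build hg19 (GRCh37); annotation version and strand setting: not given in the sources used here. Per the labels' protocols, polyA-selected, directional libraries were read as paired ends of 38 bp. All values were whole numbers. Genes were kept by filterByExpr (minimum count 10; 12303 genes), sizes were scaled by TMM, and 1 model of the 4 group means was fitted with edgeR 4.0.16 (R 4.3.3; quasi-likelihood, legacy estimates; tested on simulated data). Two-sided p-values were adjusted by Benjamini-Hochberg over these genes, and genes were called at adjusted p below 0.05. CPM use the scaled sizes. Profiles use log2 CPM with a prior count of 2. Promoters are RefSeq sequences on GRCh38.p14, matched by symbol, and coordinates are of that build only.

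The 5 genes and the 5 lists were chosen with earlier results of these data known. Named genes were the 5 genes with TP63, SOX2 and POU3F2, their close paralogs, the tested genes of each list lowest in p in the averaged comparison (up to 4), the 3 genes nearest in profile among those averaging 5 CPM or more, and the 8 largest falls with the ninth. A test of the 5 genes' difference between the systems had been planned and is given as a description, since the choice bears on it. HAS3, the tenth, and genomic neighbours were added after their values were seen. Some genes that the rule names are not reported here. Cell type markers covered epithelial, squamous, oligodendrocyte, neuronal, fibroblast, immune and endothelial cells; the immune markers summed to at most 3.30 CPM and the endothelial ones to at most 2.33 CPM in any library. Alternatives were DESeq2 1.42.0, its size factors, no filter, a replicate block and each library left out. Ratios of counts carry 95% exact intervals, which cover counting error only, as do floors.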

Additional observations from a re-analysis of the deposited data

How the results depend on the processing

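The averaged fit called 697 genes, DNp63 against GFP 1004, induced against uninduced 35, the difference between the systems 67 and uninduced against GFP 1. DESeq2 called 110 for the induced effect, 265 for the difference and 57 between the controls. With no filter on low counts the numbers were 1372 averaged, 1791 constitutive, 242 induced, 558 for the difference and 245 between the controls. Leaving out 1 library gave 225 to 1113 averaged, 452 to 1438 constitutive, 2 to 104 induced, 0 to 446 for the difference and 0 to 43 between the controls; a lone library was assumed to vary like the other groups, and the counts of 0 came without induced replicate 1 or 2 for the difference, and without any 1 of the induced or uninduced libraries between the controls. The cause was not tested.

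All 5 genes stayed lower in the average, from -3.96 to -2.40 on the log2 scale, and in each system under all 12 alternatives. The difference between the systems was called for 4 of the 5 without the filter, all but MOBP. Between the controls, 2 values changed sign without GFP replicate 2: NPTX1 to 0.68, where leaving out GFP replicate 1 gave -0.99, and COL8A1 to 0.053, against -0.37. The labels tie the replicate numbers to a vector in the constitutive system and to nothing further in the inducible one, and the deviations of same-numbered libraries correlated at 0.22 and at -0.03, so with 2 pairs a system a pairing was not established. A replicate block within each system gave 87 genes for the induced effect, 4 of the 5 genes among them. For the difference it gave 270, 3 of the 5 genes among them. Its result between the controls is not reported here. With a prior count of 0.5 the nearest profile of each of the 5 genes was the same gene. The depth limits MOBP, NPTX1 and COL8A1 most, which had DNp63 libraries of 2 to 5 counts.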
